A study of Mus musculus with 12 samples.

Results

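The genes described here encode 5 lectin-like receptors known from natural killer (NK) cells, *Klrb1c*, *Klrd1*, *Klrc1*, *Klrk1* and *Klrg1*, and the transcription factor PLZF, *Zbtb16*. They were taken by symbol from the gene column of every count file, which gave 6 of the 26608 genes listed, and each of the 6 was found in all 12 libraries. Each library came from 1 mouse, 14 weeks old, and each group had 4. The cells were CD4+ YFP(FOXP3)- T cells, isolated by sorting from the spleen combined with the cervical and inguinal lymph nodes. Both genotypes carried Foxp3Cre, a YFP-Cre fusion inserted in the *Foxp3* gene. The WT group was Foxp3Cre WT with unfloxed *Tet2* and *Tet3*, and the DKO-moderate and DKO-severe groups were Foxp3-Cre Tet2/3 fl/fl. Cre was thus made in cells that express or have expressed *Foxp3*, so the sorted DKO cells held former regulatory T cells that had lost *Tet2* and *Tet3* beside conventional CD4+ T cells, and the study notes that this Cre can be leaky. The study split the DKO mice into moderate and severe by their number of leukocytes in spleen and lymph nodes, so the split is itself a measure of disease. The question was whether genes typical of NK and NKT cells moved together in these CD4+ cells. *Klrb1c* rose in both DKO groups, the CD94 gene *Klrd1* stayed near its WT level, and the others lay between them without passing the main test, in edgeR. With an alternative method, limma voom, each of these others passed in DKO-moderate. With DESeq2, the method that the study used, *Klrc1* and *Klrk1* passed in both comparisons with WT.

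The killer-cell lectin-like receptors are type II membrane proteins that NK cells, NKT cells and some activated T cells use to read the state of neighbouring cells. *Klrb1c* encodes NKR-P1C, the antigen that defines NK and NKT cells in C57BL/6 mice and an activating receptor. CD94 (*Klrd1*) pairs with NKG2A (*Klrc1*) to form an inhibitory receptor for the class Ib molecule Qa-1, NKG2D (*Klrk1*) is an activating receptor for stress-induced ligands, and KLRG1 (*Klrg1*), carried by differentiated effector cells, is an inhibitory receptor for cadherins. PLZF is the factor that gives NKT cells and innate lymphoid precursors their effector programme.

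In the GRCm38 assembly (GENCODE vM21), 4 of the receptor genes lie within the NK gene complex of chromosome 6. These are *Klrb1c* (chr6:128778485-128789215, minus strand), *Klrd1* (chr6:129591782-129598775, plus strand), *Klrk1* (chr6:129610323-129623864, minus strand) and *Klrc1* (chr6:129666015-129678973, minus strand). *Klrd1* and *Klrk1* are 11.5 kb apart, *Klrk1* and *Klrc1* 42.2 kb, and *Klrb1c* and *Klrd1* 803 kb. *Klrg1* (chr6:122270596-122282882, minus strand) lies 6.50 Mb before *Klrb1c*, and *Zbtb16* (chr9:48654297-48836222, minus strand) is on another chromosome.

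*Klrb1c* belongs to a family of neighbouring genes, some of them close copies, so its sequence bears on what its reads can show. The first 60 coding bases that align without a gap and lie within 1 exon in all 4 *Klrb1* genes are given here from the GENCODE vM21 transcripts, with capitals for bases unlike those of *Klrb1c*.
Klrb1c: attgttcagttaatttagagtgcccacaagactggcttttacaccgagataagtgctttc
Klrb1a: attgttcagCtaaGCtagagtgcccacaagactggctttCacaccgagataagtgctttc
Klrb1b: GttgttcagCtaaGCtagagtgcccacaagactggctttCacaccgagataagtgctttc
Klrb1f: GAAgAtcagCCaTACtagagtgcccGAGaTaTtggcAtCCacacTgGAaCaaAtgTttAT
These are exonic coding stretches at chr6:128784200-128784259 for *Klrb1c*, chr6:128618552-128618611 for *Klrb1a*, chr6:128819008-128819067 for *Klrb1b* (all on the minus strand) and chr6:129053712-129053771 for *Klrb1f* (plus strand). In this stretch *Klrb1a* differed at 4 bases, *Klrb1b* at 5 and *Klrb1f* at 25. Over the aligned coding bases, *Klrb1c* was 93.6% identical to *Klrb1a*, 89.7% to *Klrb1b* and 76.2% to *Klrb1f*. The longest run of identical bases was 108 with *Klrb1a*, 75 with *Klrb1b* and 16 with *Klrb1f*, shorter than the 150-base windows examined. No 150-base window of the *Klrb1c* transcripts occurred in *Klrb1a*, *Klrb1b* or *Klrb1f*, while 8.73% occurred in *Gm44511*, a transcript model that overlaps the same locus. For *Klrc1*, 4.32% of such windows occurred in its paralog *Klrc2*, and for *Klrd1*, *Klrk1*, *Klrg1* and *Zbtb16* the count was 0. The authors counted uniquely aligned reads, so a read pair lying wholly within windows shared by separate loci would be missing from both genes. Whether pairs in the overlap with *Gm44511* were counted depends on the annotation used, which was not given.

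RefSeq promoter sequences (GRCm38.p6) were at hand for 3 of the 6 genes, *Klrb1c*, *Klrk1* and *Klrc1*, which are the gene that rose and the receptor genes with the next largest fold changes. The bases before the RefSeq start of each are shown, without any base inside an annotated exon, and capitals mark the RUNX core TGTGGT on either strand.
Klrb1c, chr6:128788642-128788886, minus strand: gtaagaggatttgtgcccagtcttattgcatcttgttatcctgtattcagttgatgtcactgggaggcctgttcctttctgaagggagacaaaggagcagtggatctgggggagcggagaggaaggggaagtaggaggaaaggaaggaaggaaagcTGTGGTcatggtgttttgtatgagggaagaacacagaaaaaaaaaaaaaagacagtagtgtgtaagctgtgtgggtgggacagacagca
Klrk1, chr6:129623865-129624114, minus strand: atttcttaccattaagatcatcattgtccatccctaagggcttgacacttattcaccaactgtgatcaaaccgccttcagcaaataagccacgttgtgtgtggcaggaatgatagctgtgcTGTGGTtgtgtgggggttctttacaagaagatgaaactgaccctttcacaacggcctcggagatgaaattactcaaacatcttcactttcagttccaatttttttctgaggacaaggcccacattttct
Klrc1, chr6:129678974-129679223, minus strand: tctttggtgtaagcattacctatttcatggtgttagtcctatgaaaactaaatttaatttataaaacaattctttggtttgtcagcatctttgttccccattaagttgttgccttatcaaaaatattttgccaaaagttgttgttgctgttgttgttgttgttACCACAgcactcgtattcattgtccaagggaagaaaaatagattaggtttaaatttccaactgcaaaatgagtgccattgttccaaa
The *Klrb1c* stretch lies inside the gene body of the longer GENCODE model, whose 5′ end is further upstream. Each of the 3 stretches held 1 RUNX core, which 14.0% of 32851 promoters hold in the 250 bases before their start. The T-box core GGTGTGA was in none of them and in 3.33% of all promoters. The motifs were chosen after the sequences were seen, they do not overlap each other in these stretches, and a match is a description of letters only.

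The libraries held 29254260 to 42133536 reads on genes. In the files, *Tet2* ranged from 43.3 to 62.2 CPM (reads scaled to a library of 1000000 reads on genes, with TMM factors) in WT and from 34.8 to 65.8 CPM in the DKO libraries. *Tet3* was 167 to 210.4 CPM in WT, 90.3 to 184.7 CPM in DKO-moderate and 87.8 to 102.5 CPM in DKO-severe. In edgeR, *Tet3* was lower than WT in DKO-severe (log2 -1.03, adjusted p = 0.000859) and did not pass in DKO-moderate (log2 -0.50). Counts over whole genes include exons outside the floxed parts and cells without Cre, so these levels check no label. *Foxp3* was at most 3.10 CPM in any library. Transcripts of other cells and of the Y chromosome set libraries apart. The 8 neutrophil markers summed to 2199 CPM in DKO-severe 1 and 814 CPM in DKO-severe 2, against at most 23.6 CPM in any other library. The 7 B cell markers summed to 301.1 CPM in DKO-severe 2, 200.03 CPM in WT 3 and 49.0 CPM in DKO-severe 1, against at most 18.8 CPM elsewhere. Transcripts of 4 Y-linked genes were near 0 in WT 2, DKO-moderate 2, DKO-moderate 4 and DKO-severe 3 and abundant in the others. The part of these in the results below was not tested, except through the refits given beside them. In such bulk samples, more cells of a type and more RNA per cell cannot be told apart.

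The study names *Klrb1c* among the T follicular helper-related genes that rose in these DKO cells. Here *Klrb1c* was the one gene of the 6 to pass the main test against WT. Its level was 12.1, 22.6, 22.5 and 24.1 CPM in WT 1 to 4. It was 46.8, 110.1, 46.8 and 179 CPM in DKO-moderate 1 to 4, and 31.2, 76.7, 90.0 and 62.7 CPM in DKO-severe 1 to 4. Every DKO library therefore lay above every WT library, while the DKO groups overlapped and DKO-severe 1 was the lowest of the 8. The means were 20.3 ± 5.54 CPM in WT, 95.7 ± 63.2 CPM in DKO-moderate and 65.2 ± 25.3 CPM in DKO-severe (SD, n = 4 each). In edgeR's quasi-likelihood test the rise over WT was 4.71-fold in DKO-moderate (log2 2.24 ± 0.46 SE, adjusted p = 0.00629) and 3.21-fold in DKO-severe (log2 1.68 ± 0.45 SE, adjusted p = 0.00784). Between DKO-severe and DKO-moderate, *Klrb1c* differed by log2 -0.55 ± 0.44 (adjusted p = 0.377), with a 95% interval from -1.50 to 0.39.

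Within DKO-moderate, *Klrb1c* differed between libraries with and without Y-linked transcripts, a split seen in the data and not fixed beforehand. The pair of DKO-moderate libraries without them held 110.1 and 179 CPM and the pair with them 46.8 CPM each, and the highest DKO-severe library, DKO-severe 3, also lacked them. In WT the library without them, at 22.6 CPM, lay within the range of the others. With a Y-linked term in the fit, the log2 fold change was 1.79 in DKO-moderate (adjusted p = 0.0107) and 1.66 in DKO-severe (adjusted p = 0.00224). Without WT 3, DKO-severe 1 and DKO-severe 2, a choice made after seeing the data, it was 2.29 (adjusted p = 0.0162) and 1.97 (adjusted p = 0.0177). A further fit held a neutrophil and a B cell term, each an average of log2 levels over its marker list and not the CPM sums above. The log2 fold change was then 2.24 in DKO-moderate and 1.64 in DKO-severe but no longer passed (adjusted p = 0.0501 and 0.331).

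**Figure D1:**
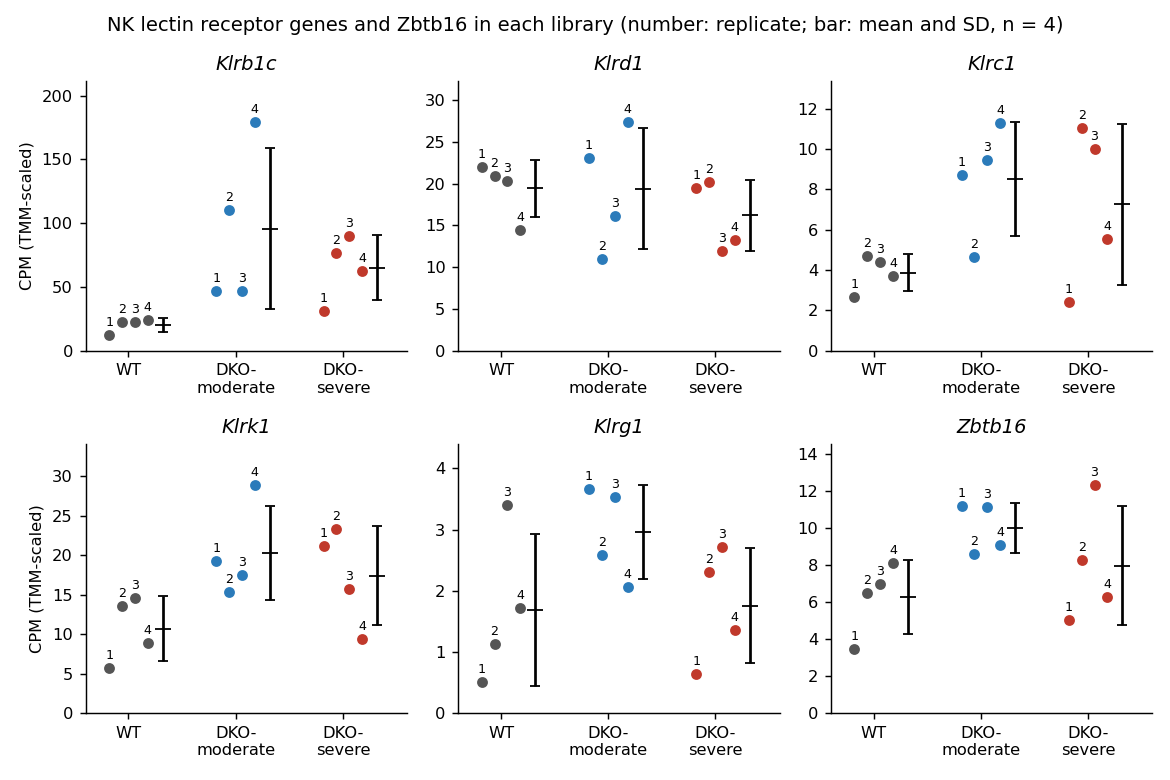
Expression (CPM, TMM-scaled, linear axes from 0) of the 6 genes in each library, with the replicate number above each point and the group mean and SD (n = 4) as a bar. *Klrb1c* is 12.1 to 24.1 CPM in WT and 31.2 to 179 CPM in the DKO groups, whereas *Klrd1* spans 11.03 to 27.4 CPM with the groups mixed.

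*Klrd1*, the CD94 subunit, showed no such rise. It was at 22.0, 20.9, 20.4 and 14.5 CPM in WT 1 to 4, at 23.02, 11.03, 16.1 and 27.4 CPM in DKO-moderate 1 to 4, and at 19.5, 20.2, 11.9 and 13.2 CPM in DKO-severe 1 to 4. The 3 groups overlapped throughout, and both the highest and the lowest library were DKO-moderate. Relative to WT it changed by log2 -0.0042 ± 0.27 in DKO-moderate (95% interval -0.59 to 0.58, adjusted p = 0.999) and -0.26 ± 0.27 in DKO-severe (95% interval -0.85 to 0.32, adjusted p = 0.429). Intervals of this width do not show CD94 transcripts to be equal between the groups.

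*Klrc1*, the NKG2A partner of CD94, was at 2.67, 4.71, 4.40 and 3.72 CPM in WT 1 to 4. It was at 8.69, 4.63, 9.46 and 11.3 CPM in DKO-moderate 1 to 4 and at 2.43, 11.1, 9.998 and 5.55 CPM in DKO-severe 1 to 4. In each DKO group, 3 of 4 libraries lay above every WT library and 1 fell within or below the WT range, namely DKO-moderate 2 and DKO-severe 1. The log2 fold change was 1.14 ± 0.42 in DKO-moderate (adjusted p = 0.0815) and 0.91 ± 0.42 in DKO-severe (adjusted p = 0.0847), so neither passed. DESeq2 put it past the threshold in both comparisons (adjusted p = 0.0294 and 0.0368). Leaving out DKO-severe 1 did so as well (adjusted p = 0.0272 in DKO-moderate and 0.0116 in DKO-severe).

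*Klrk1*, encoding NKG2D, was at 5.75, 13.6, 14.5 and 8.88 CPM in WT 1 to 4, at 19.2, 15.4, 17.5 and 28.9 CPM in DKO-moderate 1 to 4, and at 21.1, 23.4, 15.8 and 9.41 CPM in DKO-severe 1 to 4. All DKO-moderate libraries lay above all WT libraries, and DKO-severe 4 fell among the WT libraries. The log2 fold change was 0.92 ± 0.33 in DKO-moderate (adjusted p = 0.0766) and 0.70 ± 0.33 in DKO-severe (adjusted p = 0.0925), short of the threshold in both. It passed in DESeq2 (adjusted p = 0.0288 and 0.0411) and, in DKO-severe, without DKO-severe 4 (adjusted p = 0.0260). With the neutrophil and B cell terms its DKO-severe estimate was -0.05 (adjusted p = 0.972).

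*Klrg1* was the lowest of the 6 in reads, with 18 to 142 reads per library. It was at 0.517, 1.13, 3.39 and 1.72 CPM in WT 1 to 4, at 3.67, 2.58, 3.53 and 2.07 CPM in DKO-moderate 1 to 4, and at 0.649, 2.31, 2.71 and 1.36 CPM in DKO-severe 1 to 4. Its highest WT library, WT 3, was also the WT library with B cell and myeloid transcripts. The log2 fold change was 0.81 ± 0.54 in DKO-moderate (adjusted p = 0.321) and 0.06 ± 0.54 in DKO-severe (adjusted p = 0.932). *Klrg1* passed in DKO-moderate in limma voom and in edgeR with the neutrophil and B cell terms (adjusted p = 0.0330 with these terms).

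*Zbtb16* was at 3.51, 6.52, 7.01 and 8.15 CPM in WT 1 to 4, at 11.2, 8.61, 11.2 and 9.11 CPM in DKO-moderate 1 to 4, and at 5.06, 8.28, 12.4 and 6.27 CPM in DKO-severe 1 to 4. Every DKO-moderate library was above every WT library, by a small margin, and the DKO-severe libraries spread across both. The log2 fold change was 0.67 ± 0.30 in DKO-moderate (adjusted p = 0.140) and 0.34 ± 0.30 in DKO-severe (adjusted p = 0.343). PLZF transcripts thus did not pass the edgeR test in either comparison. Limma voom put them past the threshold in DKO-moderate (adjusted p = 0.0474), and in DKO-severe no alternative did.

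Counted together, 1 of the 6 genes was higher in DKO-moderate than in WT, where 12.3% of the 16035 genes tested were higher and 4.74% lower. In DKO-severe against WT it was also 1 of 6, where 26.6% of genes were higher and 25.9% lower. None of the 6 was called lower in either comparison. By lack of overlap, 3 of the 6 (*Klrb1c*, *Klrk1* and *Zbtb16*) had every DKO-moderate library above every WT library, against 14.6% of all genes, and 1 of 6 (*Klrb1c*) had every DKO-severe library above every WT library, against 24.6%. In DKO-severe against DKO-moderate, 0 of 6 passed in edgeR, in DESeq2 or in limma voom, and 0 had an unadjusted edgeR p under 0.05, where 9.41% of genes were higher and 10.7% lower. All 6 had their DKO-severe mean below their DKO-moderate mean, at log2 -0.22 to -0.75. Both comparisons with WT share their control libraries. The 6 had a median log2 fold change against WT of 0.87 for DKO-moderate, 0.52 for DKO-severe and -0.29 between the DKO groups, against medians of 0, -0.01 and -0.03 over all genes tested.

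**Figure D2:**
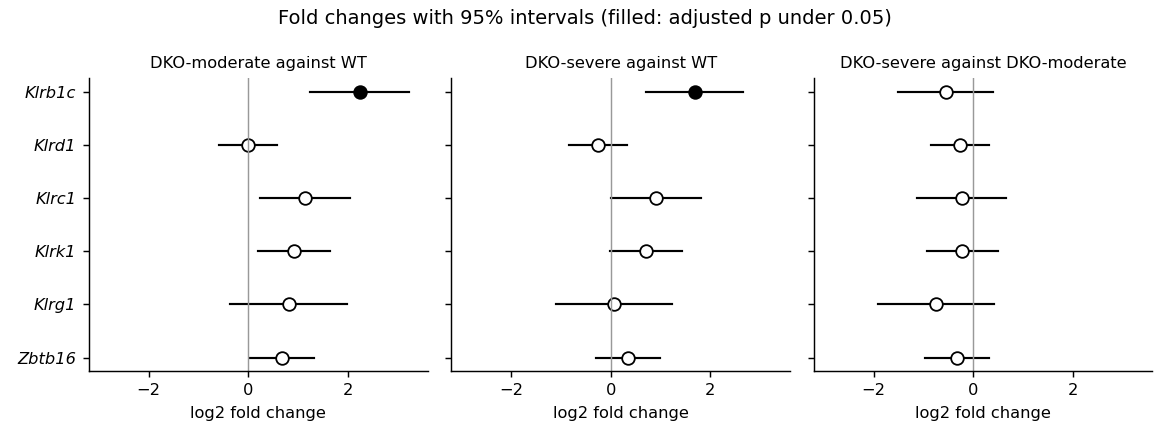
Fitted log2 fold changes (points) with unadjusted 95% intervals (lines) of the 6 genes in the 3 comparisons, filled where the adjusted p was under 0.05. *Klrb1c* is filled in both comparisons with WT, at 2.24 and 1.68, and no point is filled between the DKO groups.

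The balance among the receptors shifted with *Klrb1c*. Per kilobase of exon, *Klrd1* had the highest mean level of the 6 in WT, at 15.2 CPM per kb against 6.86 for *Klrb1c*. In DKO-moderate *Klrb1c* had the highest, at 32.3 CPM per kb against 15.1 for *Klrd1*, and in DKO-severe it was 22.0 against 12.7. The other 4 genes were between 1.19 and 4.29 CPM per kb in every group. The ratio of *Klrb1c* to *Klrd1* reads, which no scaling between libraries can change, was 0.548 to 1.66 in WT, 2.03 to 9.98 in DKO-moderate and 1.596 to 7.57 in DKO-severe. The lowest DKO-severe ratio, in DKO-severe 1, was below the highest WT ratio. *Klrb1c* made up 28.0 to 45.5% of the CPM of the 5 receptor genes in WT, 46.2 to 76.6% in DKO-moderate and 41.6 to 69.0% in DKO-severe.

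Whether the genes moved together was also asked within groups, over the deviation of each library's log2 CPM from its own group mean. Of 15 pairs, 12 had a positive Pearson r, the values ran from -0.30 to 0.86 with a median of 0.34, and 0 passed after adjustment over the 15 in an exact permutation test within groups (two-sided). At an unadjusted p under 0.05 there were 3 such pairs. The closest pair was *Klrg1* and *Zbtb16* (r = 0.86, exact permutation p = 0.00658, adjusted p = 0.0987, and Spearman's rho 0.86, exact permutation p = 0.00463, adjusted p = 0.0694). Its r was 0.66 without WT 1 and DKO-severe 1, the 2 libraries whose *Klrg1* deviations lay farthest from the median deviation, with WT 3 next. It was followed by *Klrc1* with *Zbtb16* (r = 0.71, exact permutation p = 0.0216, adjusted p = 0.108) and *Klrc1* with *Klrg1* (r = 0.66, exact permutation p = 0.0201, adjusted p = 0.108). Their rho was 0.57 and 0.50, with unadjusted exact permutation p = 0.0971 and 0.147. Without WT 3 the *Klrg1* and *Zbtb16* pair passed (r = 0.94, exact permutation, adjusted p = 0.0304), and without DKO-severe 1 *Klrc1* with *Klrk1* passed (r = 0.85, exact permutation, adjusted p = 0.0260).

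*Klrd1* had its highest r with *Klrk1*, at 0.53 (exact permutation p = 0.0753, adjusted p = 0.282), with rho 0.63 (exact permutation p = 0.0462, adjusted p = 0.346), and r was 0.78 without WT 1 (exact permutation, adjusted p = 0.104). With *Klrb1c*, *Klrg1* and *Zbtb16* its r was -0.14, -0.26 and -0.30. These are the 3 pairs below 0, and all have an adjusted exact permutation p of 0.480 or above. CD94 and its partner NKG2A had r = 0.17. By library, WT 3 and DKO-severe 2 had all 6 genes above their own group mean, and WT 1, DKO-moderate 2 and DKO-severe 4 had 5 of 6 below. WT 3 and DKO-severe 2 are the libraries with the highest summed B cell markers of their groups. In DKO-moderate 2, *Klrb1c* was above its group mean while the other 5 were below.

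**Figure D3:**
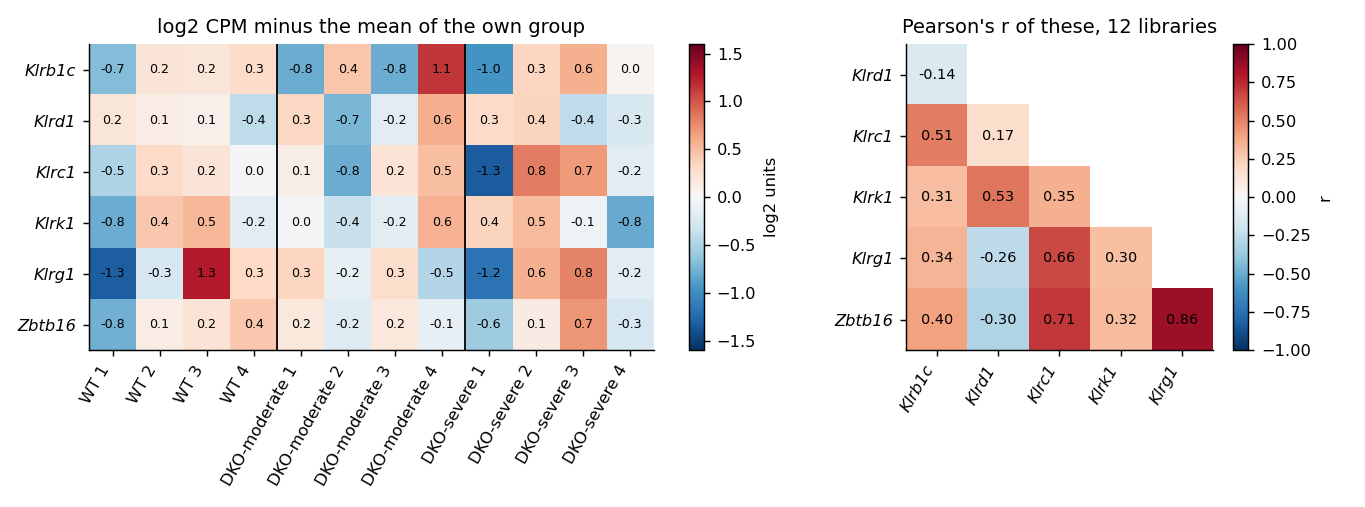
Left, the deviation of each library's log2 CPM from the mean of its own group for the 6 genes, with red above and blue below. Right, Pearson's r of these deviations over the 12 libraries for each of the 15 pairs, from -0.30 (*Klrd1* with *Zbtb16*) to 0.86 (*Klrg1* with *Zbtb16*).

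Among 9995 genes with a mean of at least 5 CPM (9996 for *Klrg1*), those whose within-group deviations were most like each member were also listed, as a description over 12 libraries. For *Klrb1c* they were *Asb2* (r = 0.91), *Ovca2* (0.90) and *Zfp948* (0.89). For *Klrd1* they were *Tmem50a*, *Ngdn* and *Kti12* (r = 0.91 to 0.96), and for *Klrc1* *Qpct*, *Zfp672* and *Il17rb* (0.94 to 0.96). *Klrk1* was closest to *Nop10*, *Il12rb2*, an interleukin 12 receptor chain, and *Ifngr1*, an interferon gamma receptor chain (r = 0.88 to 0.89). *Slamf1*, a receptor of the SLAM family that NKT cell development uses, was among the 3 nearest genes of both *Zbtb16* (r = 0.88) and *Klrg1* (r = 0.89). So many genes were searched over so few libraries that values of this size carry no weight of their own.

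The genes around the receptors on chromosome 6 changed in both directions. From 1 Mb before *Klrb1c* to 1 Mb after *Klrc1*, 64 annotated genes were listed and 47 tested. In DKO-moderate against WT 7 were higher and 2 lower, and in DKO-severe against WT 13 were higher and 5 lower. The shares over all genes tested, as given above, were 12.3% higher and 4.74% lower in the first and 26.6% higher and 25.9% lower in the second. Among genes past the threshold, the largest rise was *Klrb1a* in DKO-moderate (log2 6.12, adjusted p = 0.00149) and *Tead4*, a transcription factor gene, in DKO-severe (log2 10.70, adjusted p = 0.00158). The largest fall past the threshold was *Tspan9*, a tetraspanin gene, in both (log2 -1.09 and -3.14, adjusted p = 0.0259 and 1.70e-05). *Klrd1*, *Klrk1* and *Klrc1* did not pass. Between the DKO groups 5 of the 47 were higher and 1 lower in DKO-severe, where 9.41% of all genes tested were higher and 10.7% lower. None of these 6 carries a *Klr* symbol.

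**Figure D4:**
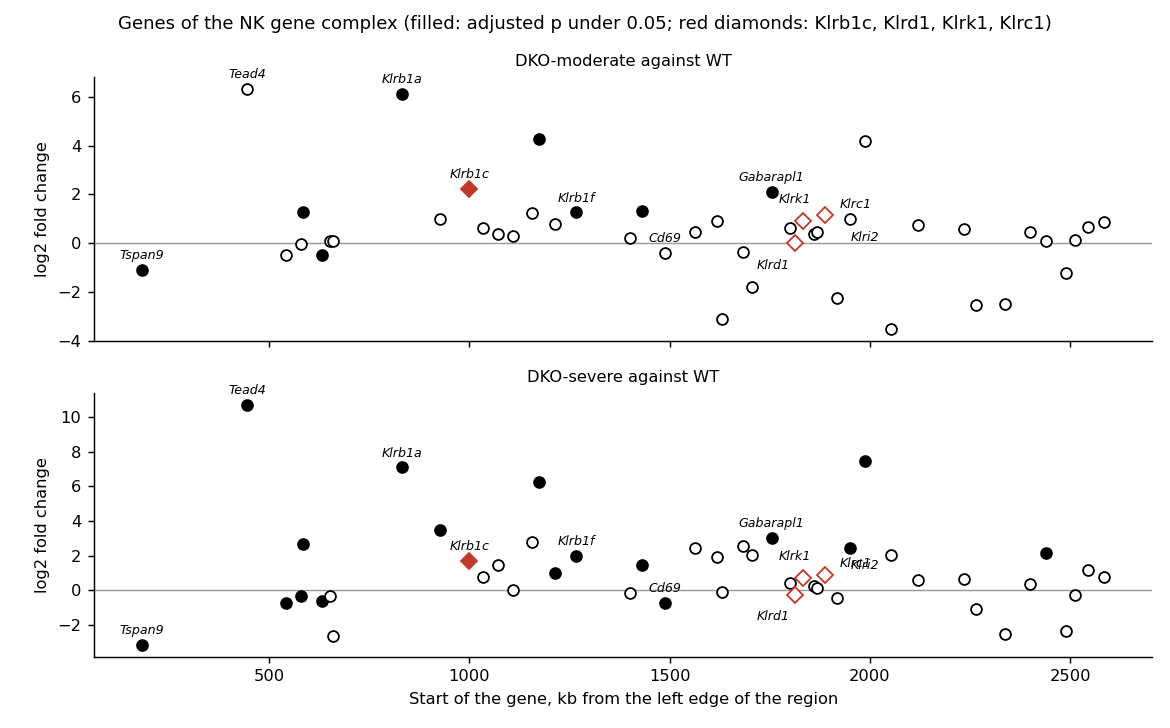
Fitted log2 fold change against WT of the genes tested in the NK gene complex, by the distance of each gene's start from the left edge of the region in kb, with filled points where the adjusted p was under 0.05. Filled points are mixed with open ones up to *Gabarapl1*, and beyond it the DKO-moderate panel holds open points, with *Klrb1a*, *Klrb1c* and *Klrb1f* filled in both panels and *Klrd1*, *Klrk1* and *Klrc1* open.

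Of 20 further NK lectin receptor genes fixed as a list, 19 were listed and tested. In DKO-moderate 2 were higher, *Klrb1a* and *Klrb1f*, and 0 lower. In DKO-severe 4 were higher, *Klrb1a*, *Klrb1f*, *Klri2* and *Klra7*, and 0 lower. Over all genes tested, 12.3% were higher in DKO-moderate and 26.6% in DKO-severe, so neither count stood above the background. The median log2 fold change of the list was 0.48 and 0.68. *Klrb1a* encodes NKR-P1A, an activating relative of NKR-P1C. It had 12 reads in the 4 WT libraries together, and rose to 1.196, 5.77, 2.56 and 15.7 CPM in DKO-moderate 1 to 4 and to 10.7, 5.48, 18.4 and 14.4 CPM in DKO-severe 1 to 4 (log2 7.09 ± 0.99 SE in DKO-severe, adjusted p = 0.000118). *Klrb1f*, another member of the NKR-P1 family, rose from 2.50 to 5.22 CPM in WT to 6.48 to 10.9 CPM in DKO-moderate and 10.48 to 16.5 CPM in DKO-severe (log2 1.26 and 1.98, adjusted p = 0.00511 and 6.06e-05). Each DKO library lay above each WT library for both genes. *Klrb1b*, which encodes an inhibitory receptor of that family, was at most 1.67 CPM and did not pass (log2 0.63 and 0.77). The NKG2A paralogs *Klrc2* and *Klrc3* did not pass either, with at most 2.07 CPM.

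**Figure D5:**
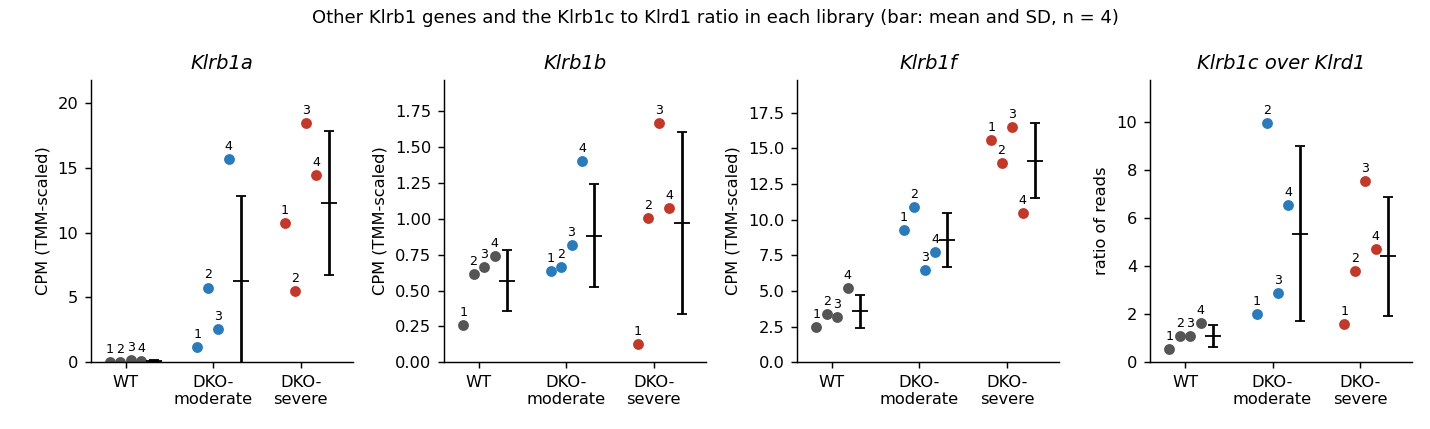
Expression (CPM, TMM-scaled) of *Klrb1a*, *Klrb1b* and *Klrb1f*, and the ratio of *Klrb1c* to *Klrd1* reads, in each library, on linear axes from 0, with the group mean and SD (n = 4) as a bar. *Klrb1a* and *Klrb1f* are above WT in every DKO library, and the ratio is at most 1.66 in WT and 1.596 to 9.98 in the DKO groups.

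The signalling partners of these receptors changed in both directions in DKO-severe. Of 9 adaptors and signalling enzymes, 2 were higher and 0 lower in DKO-moderate, and 3 were higher and 2 lower in DKO-severe. Over all genes tested, 12.3% were higher and 4.74% lower in DKO-moderate, and 26.6% and 25.9% in DKO-severe, so counts over so short a list show little. The largest rise past the threshold was *Zap70*, the kinase that antigen receptors and some NK receptors use (log2 0.76 and 1.005, adjusted p = 0.00178 and 5.34e-05). *Hcst*, encoding DAP10, the chain through which NKG2D signals, fell in DKO-severe from 82.3 to 96.2 CPM in WT to 32.9 to 55.7 CPM (log2 -1.02 ± 0.17, adjusted p = 0.000427). The DKO-severe level was also below that of DKO-moderate (log2 -0.91, adjusted p = 0.00595). *Cd247*, encoding the zeta chain, fell in DKO-severe too (log2 -1.20, adjusted p = 5.44e-05). *Fcer1g*, the gamma chain through which NKR-P1C signals, did not pass and was highest in DKO-severe 1 (14.6 CPM) and DKO-severe 2 (13.9 CPM), the libraries with neutrophil transcripts, and in WT 3 (7.10 CPM).

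Of 10 ligand genes of these receptors, 6 were tested. *Cdh2*, encoding N-cadherin, a ligand of KLRG1, had 1 read in the 4 WT libraries together. It was at 1.25, 10.2, 3.25 and 16.6 CPM in DKO-moderate 1 to 4 and at 31.96, 15.5, 58.9 and 22.0 CPM in DKO-severe 1 to 4, and was higher than WT in both (adjusted p = 0.000547 and 2.06e-05). DKO-severe also exceeded DKO-moderate (log2 2.04, adjusted p = 0.0441). *H2-T23*, encoding Qa-1, the ligand of CD94 with NKG2A, was lower in DKO-severe (log2 -0.34, adjusted p = 0.00872) and did not pass in DKO-moderate (log2 -0.13). No other ligand gene passed in a comparison with WT, among them *Cdh1*, at 0.550 to 2.34 CPM.

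Of 16 other genes known from NKT cells, which were fixed as a list with earlier results known, 9 were higher and 0 lower in DKO-moderate, and 7 higher and 1 lower in DKO-severe, where 12.3% and 26.6% of all genes tested were higher. The median log2 fold change was 0.92 and 0.99. Among called genes the largest rise was *Nkg7*, a cytotoxic granule gene, in DKO-moderate (log2 1.64, adjusted p = 0.0186) and *Egr2*, a factor induced by antigen receptor signals, in DKO-severe (log2 2.18, adjusted p = 3.43e-05). The smallest called rise was *Slamf1* in DKO-moderate (log2 0.58, adjusted p = 0.0410) and *Il18rap*, an interleukin 18 receptor chain, in DKO-severe (log2 0.94, adjusted p = 0.00194). *Cd1d1*, encoding the molecule that presents lipids to NKT cells, fell in DKO-severe from 47.4 to 57.1 CPM in WT to 16.5 to 26.6 CPM (log2 -1.23, adjusted p = 3.36e-05). *Cxcr6*, a chemokine receptor of NKT cells, and *Tbx21*, the Th1 and NK factor T-bet, did not pass (log2 0.70 and 0.59 in DKO-moderate and 0.64 and 0.38 in DKO-severe). Activated conventional CD4+ T cells also express most of this list.

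Markers of other cells that carry these receptors were examined over whole lists. Of 12 NK cell markers, 3 were higher in each comparison with WT and 0 lower, where 26.6% (DKO-severe) and 12.3% (DKO-moderate) of all genes tested were higher, led by *Gzmb*, encoding granzyme B (log2 3.10 and 5.03, adjusted p = 0.00731 and 0.000109). Their sum was 78.4 to 126.3 CPM in WT, 179 to 272 CPM in DKO-moderate and 158 to 611 CPM in DKO-severe, with the highest value in DKO-severe 2. *Nkg7* had the highest mean of these markers in each group, at 38.3 CPM in WT, 119 CPM in DKO-moderate and 131 CPM in DKO-severe. The lists overlap, since *Nkg7* was also counted among the NKT genes and *Klri2* among the further lectin receptors. Single markers differed among the libraries. *Eomes*, encoding a factor of NK and activated T cells, was 5.03 to 99.4 CPM and *Prf1*, encoding perforin, 5.78 to 77.4 CPM over the 12 libraries, each highest in DKO-severe 2 and lowest in DKO-severe 1. *Klra4* and *Klra8* were highest in WT 3, at 0.862 and 0.632 CPM, and *Klra9* was at most 0.944 CPM. *Ncr1*, encoding NKp46, was at most 1.01 CPM except in DKO-severe 1 (6.07 CPM). *Klri2* was 0.46 to 1.32 CPM in WT, 0.44 to 3.52 CPM in DKO-moderate and 3.59 to 4.72 CPM in DKO-severe. *Cd8a* was at most 0.273 CPM except in WT 3, DKO-severe 1 and DKO-severe 2, where it was 6.47, 3.15 and 7.002 CPM. *Cd8b1* fell in both DKO groups (log2 -1.67 and -2.51, adjusted p = 0.0271 and 0.000935). It was 16.6 to 20.3 CPM over all WT libraries, and 6.15 CPM in DKO-severe 2, where *Cd8a* was highest. *Cd8a* and *Cd8b1* thus did not move together, and what the fall means for CD8 T cells was not tested.

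*Cd4*, which the sort selected for, was at 864 to 1368 CPM in every library, beside the neutrophil and B cell transcripts described above. As a background for the counts that follow, 12.3% of all genes tested were higher and 4.74% lower in DKO-moderate against WT. In DKO-severe against WT the shares were 26.6% and 25.9%. Of 8 CD4 T cell markers, 4 were higher and 0 lower in DKO-moderate and 2 higher and 3 lower in DKO-severe. Of 8 innate lymphoid cell markers, most of which CD4+ T cells also express, 2 were higher and 0 lower in DKO-moderate and 4 higher and 1 lower in DKO-severe. Of 7 gamma delta T cell markers, 3 were listed in the files, with 2 higher in DKO-severe and 0 in DKO-moderate. These 2 were *Blk*, at 17.7 to 117 CPM in DKO-severe, and *Cd163l1*, at 0.670 to 3.57 CPM. The markers not listed were the constant genes of the T cell receptor gamma and delta chains, so this count says little about gamma delta T cells. The 6 monocyte and macrophage markers gave 0 and 2 higher, the 8 neutrophil markers 1 and 8, and the 7 B cell markers 0 and 0. Their part in the levels of the 6 genes was not tested beyond the refits given above.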

How the data were processed

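RNA was sequenced from CD4+ YFP(FOXP3)- T cells of 12 mice, with 4 mice in the WT, 4 in the DKO-moderate and 4 in the DKO-severe group, as given by the sample labels. The deposited files hold raw read counts per gene symbol, made by the authors by aligning 150-base paired reads to mm10 with STAR 2.7.11, keeping uniquely aligned reads and counting them with htseq-count in reverse-stranded mode. The annotation behind the counts was not given in the sources used here. Between 18.53 and 23.73% of read pairs per library were assigned to no gene and were left out.

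A gene was kept when any group reached 10 reads in the sum of its libraries, which left 16035 of 26608. All 12 libraries were fitted together in edgeR 4.0.16 (R 4.3.3) with TMM scaling and the quasi-likelihood F test, and p-values were adjusted by Benjamini-Hochberg over all genes tested, with a threshold of 0.05. The SE is the log2 fold change divided by the square root of F. Log2 CPM for pairs used a prior count of 2. Alternatives used limma 3.58.1, DESeq2 1.42.0 and other filters, scalings and samples. The fit was tested on simulated data. Positions came from GENCODE vM21 and promoters from RefSeq, and by symbol 22424 of the listed genes matched GENCODE, 2058 more by an older symbol, leaving 2126 unmatched.

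Genes named are the 6 chosen genes. From each list, the genes with the largest and smallest change past the threshold and the defining markers are named. The 3 genes nearest to each member, and the largest rise and fall past the threshold in the NK gene complex, are also named. *Klrb1b*, *Klrb1f*, *Klri2*, *Klra7*, *Klrc2*, *Klrc3*, *Cdh1*, *Cxcr6*, *Tbx21*, *Fcer1g*, *Eomes*, *Prf1* and *Gabarapl1* were named after their values were seen. The 6 genes, the lists and the tests were chosen with earlier results of these data known. No 2 libraries of the same group agreed within sampling noise. Each library is 1 mouse, and depth limits *Klrg1* most.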

Additional observations from a re-analysis of the deposited data

Results flagged for a closer look

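One of the 18 sets of 4 libraries examined (6 genes in 3 groups) held a library far from the others. In WT, *Klrb1c* was 12.1 CPM in WT 1, against 22.5 to 24.1 CPM in the other WT libraries, so that its gap to the next library was 0.869 of the whole range. Chance would pick out about 1 in 20 such sets. WT 1 also had the lowest *Klrc1*, *Klrk1*, *Klrg1* and *Zbtb16* of its group and the highest *Klrd1*. Without WT 1, the log2 fold change of *Klrb1c* still passed the threshold in both comparisons with WT.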

How the results depend on the processing

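The call of *Klrb1c* against WT held in both comparisons under 22 of 23 alternatives, with log2 fold changes of 1.49 to 2.46 in DKO-moderate and 1.499 to 1.97 in DKO-severe, and was lost with the neutrophil and B cell terms. With these terms the DKO-severe estimate moved from 1.68 to 1.64. The neutrophil term there overlaps with the group, so their parts cannot be well told apart. The number of the 6 genes past the threshold, 1 in each comparison with WT, moved as follows. In DKO-severe against WT it was 3 with DESeq2, 3 with library size alone and 0 with the neutrophil and B cell terms, and 1 to 2 when single libraries were left out. In DKO-moderate against WT it was 3 with DESeq2, 5 with limma voom, 2 with the groups compared alone and 3 without WT 3, DKO-severe 1 and DKO-severe 2 (chosen after seeing the data), and 1 to 2 when single libraries were left out. With the neutrophil and B cell terms the 1 gene was *Klrg1* (log2 1.79, adjusted p = 0.0330) and not *Klrb1c*. Between the DKO groups it was 0 throughout. The 0 pairs past the threshold became 0 to 1 when single libraries were left out. Scaling by library size alone moved the median of all genes to 0.18 in DKO-severe against WT.

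Signs turned for values that passed no threshold. Without single libraries, the log2 fold change ran from -0.24 to 0.65 for *Klrg1* in DKO-severe against WT, from -0.23 to 0.19 for *Klrd1* in DKO-moderate against WT, and from -0.46 to 0.057 for *Klrc1* and -0.36 to 0.041 for *Klrk1* between the DKO groups. *Klrd1* in DKO-moderate against WT was 0.070 by library size alone, 0.020 with the Y-linked term and 0.018 without WT 3, DKO-severe 1 and DKO-severe 2. With the neutrophil and B cell terms, *Klrk1* was -0.050 in DKO-severe against WT, and between the DKO groups *Klrc1* was 0.56, *Klrg1* 0.32 and *Zbtb16* 0.32. *Klrb1c* between the DKO groups was 0.18 in limma voom. The cause of these moves was not tested. Libraries with the same number did not deviate together (median r -0.03 over 12 pairs against 0.01 over 36 pairs of unlike number). This gave no sign that the numbers pair mice, though such a check cannot exclude it. With the replicate block, 1, 1 and 0 of the 6 genes passed in the 3 comparisons, and *Klrb1c* was at log2 1.67 in DKO-severe and 2.13 in DKO-moderate against WT.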
